A study of Mus musculus with 18 samples.

Results

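Gene expression was compared between dura that held mast cells and dura that did not, and 6 of the 19937 genes tested passed the test in both mast cell-bearing categories, always on the higher side. The mast cell-bearing class held 12 arrays, 6 titled engrafted and 6 titled wild type, and the deficient class held 6 arrays, so that all 18 arrays of the series were used. A gene was a member when engrafted minus deficient and wild type minus deficient, each averaged over stroke and naive dura, both reached an adjusted p under 0.05 with the same sign. The members were Mcpt2, Cpa3, Mcpt4, Tpsb2, Tpsab1 and Mmp3.

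The dura is the outer membrane around the brain, and 1 Affymetrix gene-level array was made from each male mouse aged 17 to 21 weeks, with 3 arrays in each of 6 groups. Engrafted mice were WBB6F1-KitW/W-v animals given mast cells intravenously 8 to 10 weeks earlier, wild-type mice were WBB6F1-Kit+/+, and deficient mice were WBB6F1-KitW/W-v animals without engraftment. In each category, stroke was a 30 min filament occlusion of the middle cerebral artery with dura taken at day 2, and naive mice were age-matched. No sham-operated mice were analysed here, so surgery and ischaemia cannot be told apart. Mice were perfused with cold saline before the dura was removed, and the source of the engrafted mast cells is not given in the sources used here. Engrafted and deficient mice shared both mutant Kit alleles and differed by engraftment, whereas wild-type and deficient mice differed in Kit itself and so in every lineage that depends on it. KitW/W-v mice are known to be anaemic, to lack melanocytes and germ cells and to have few circulating neutrophils, besides lacking mast cells.

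Mast cells are resident immune cells of connective tissue, numerous in the dura, that depend on the receptor tyrosine kinase Kit for their development. Their granules store histamine and large amounts of neutral proteases, the chymases, tryptases and carboxypeptidase A3, held on heparin, and release them after IgE receptor or Mrgprb2 signalling. Mast cells are also known for recruiting other leukocytes.

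Values are log2 probe set levels, on which a difference of 1 is 2-fold. The median level of an array was 7.77 to 7.91, and correlations within a group over all probe sets were 0.985 to 0.995. 5 arrays stood apart in Ttr, the transthyretin gene that marks choroid plexus, with levels of 9.03 to 10.17 against 13.03 to 13.78 in the other 13 arrays. They were 1 engrafted naive, 1 wild-type stroke, 2 deficient naive and 1 deficient stroke array, so 2 of 12 mast cell-bearing and 3 of 6 deficient arrays. This split is that of Ttr alone. Engrafted stroke 3, at 13.03 in Ttr, lay between the low arrays and the rest in other choroid plexus genes (Htr2c 9.03, Kcne2 7.93 and Kl 9.88). Without these 5 arrays, where deficient naive dura keeps 1 array that is assumed to vary like the other groups, Mcpt2, Cpa3, Mcpt4 and Tpsb2 passed in both categories, and Tpsab1 (engrafted minus deficient 0.69, limma adjusted p = 0.224) and Mmp3 (0.86, adjusted p = 0.877) did not.

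The granule proteases made up 5 of the 6 members, and none of the 5 was called for engrafted minus wild type. Mcpt2, a chymase of the mast cell protease family, gave the largest difference of all probe sets tested. In stroke dura it stood at 9.61, 9.99 and 9.72 in engrafted mice and at 9.60, 9.28 and 8.80 in wild-type mice, against 5.44, 5.42 and 5.31 in deficient mice. In naive dura it stood at 10.77, 9.40 and 8.64 in engrafted mice and at 10.05, 9.71 and 9.61 in wild-type mice, against 4.93, 5.13 and 5.13 in deficient mice. Every mast cell-bearing array was above every deficient array by more than 3 log2 units. The difference from deficient dura was 4.47 ± 0.25 for engrafted (SE, limma adjusted p = 2.4e-07) and 4.28 ± 0.25 for wild type (adjusted p = 4.41e-07). In bulk tissue, fewer cells of a type and less RNA per cell cannot be told apart.

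Cpa3, carboxypeptidase A3, was at 9.47, 9.79 and 9.70 in engrafted stroke dura and at 9.17, 9.29 and 8.39 in wild-type stroke dura, against 5.67, 5.82 and 5.74 in deficient stroke dura. In naive dura the levels were 10.90, 9.67 and 8.76 in engrafted mice and 9.79, 9.13 and 9.41 in wild-type mice, against 5.82, 5.66 and 5.80 in deficient mice. The engrafted naive arrays spread over about 2 log2 units, wider than any other group for this gene, and still lay clear of the deficient ones. Cpa3 exceeded deficient dura by 3.97 ± 0.26 in engrafted (adjusted p = 1.14e-06) and 3.44 ± 0.26 in wild-type dura (adjusted p = 6.24e-06). Mcpt4, the main chymase of connective tissue mast cells, was at 8.66, 8.75 and 8.87 in engrafted stroke dura and at 8.53, 8.59 and 7.96 in wild-type stroke dura, against 5.68, 5.88 and 5.94 in deficient stroke dura. Its naive levels were 10.39, 8.95 and 8.12 in engrafted mice and 9.24, 8.99 and 9.19 in wild-type mice, against 5.40, 5.82 and 5.59 in deficient mice. Mcpt4 thus separated the classes in both states, by 3.24 ± 0.26 in engrafted (adjusted p = 1.32e-05) and 3.03 ± 0.26 in wild-type dura (adjusted p = 2.51e-05). The deficient means of Mcpt2, Cpa3 and Mcpt4 were below the lower quartile of all values on every array, 6.09 to 6.23. A level there may be mostly background, so these differences may be lower bounds.

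Both tryptase genes differed by less. Tpsb2, tryptase beta 2, was at 8.36, 8.44 and 8.34 in engrafted stroke dura and at 8.34, 8.46 and 8.12 in wild-type stroke dura, against 7.41, 7.41 and 7.48 in deficient stroke dura. Its naive levels were 8.81, 8.23 and 7.89 in engrafted mice and 8.52, 8.21 and 8.29 in wild-type mice, against 7.10, 7.26 and 7.08 in deficient mice. The groups did not overlap, and the differences were 1.06 ± 0.12 for engrafted (adjusted p = 0.000688) and 1.03 ± 0.12 for wild type (adjusted p = 0.000283). Tpsab1, tryptase alpha/beta 1, ranged from 7.31 over a median of 7.76 to 8.07 in the 12 mast cell-bearing arrays, against a lowest of 6.80, a median of 6.99 and a highest of 7.14 in the 6 deficient arrays. It also separated the classes without overlap, at 0.63 ± 0.09 for engrafted (adjusted p = 0.00822) and 0.82 ± 0.09 for wild type (adjusted p = 0.000252). Mcpt2 and Mcpt4 lie on chromosome 14 with Cma1, and both tryptase genes lie on chromosome 17, in the RefSeq table for GRCm38.p6, where Tpsab1 is annotated as a transcribed pseudogene of the C57BL/6J strain. Signal shared between these similar genes on the array was not tested.

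**Figure D1:**
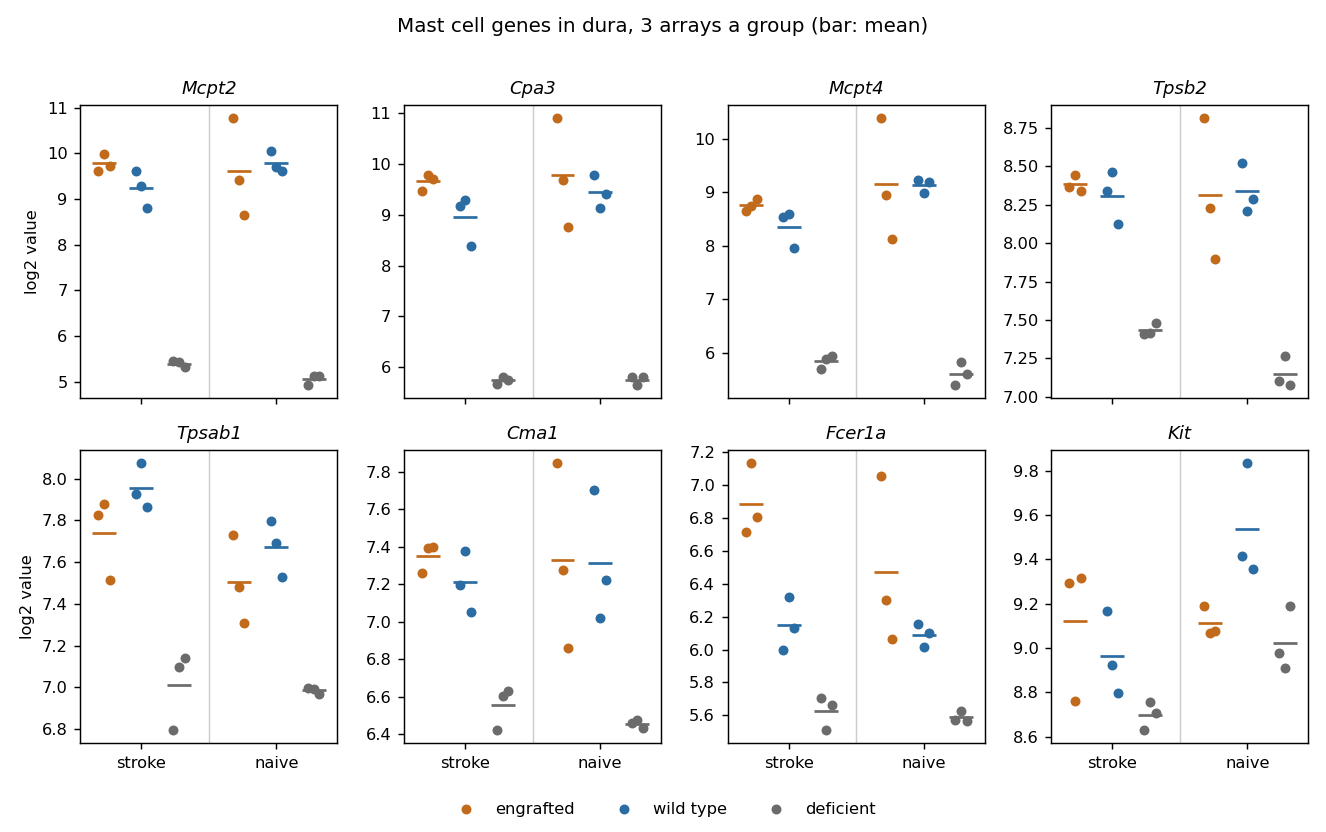
Log2 levels of 8 mast cell genes in each array, with engrafted, wild-type and deficient dura in that order for stroke on the left and naive on the right, and bars at the group means; each panel has its own vertical scale. For Mcpt2, Cpa3, Mcpt4, Tpsb2, Tpsab1, Cma1 and Fcer1a all 12 mast cell-bearing arrays lie above all 6 deficient arrays, and for Kit they overlap.

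The sequences before the transcription starts of Cpa3, Mcpt4 and Mmp3 are shown to set 2 members that separated the classes in both states beside Mmp3, which separated them after stroke. RefSeq promoter windows, from 250 bases before to 50 after the start on GRCm38.p6, were on file for 3 of the 6 members. They are Cpa3 at chr3:20242132-20242431 on the minus strand, Mcpt4 at chr14:56062261-56062560 on the minus strand and Mmp3 at chr9:7445572-7445871 on the plus strand, each 5′ to 3′ in the direction of the gene, with capitals for AGATAA or TGATAA, the core sites of GATA factors such as GATA2, which drive mast cell genes.
Cpa3: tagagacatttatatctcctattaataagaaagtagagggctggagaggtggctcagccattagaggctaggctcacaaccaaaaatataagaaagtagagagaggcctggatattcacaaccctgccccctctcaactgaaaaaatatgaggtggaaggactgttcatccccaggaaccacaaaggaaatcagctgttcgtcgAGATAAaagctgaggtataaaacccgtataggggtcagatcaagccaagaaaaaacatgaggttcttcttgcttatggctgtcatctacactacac
Mcpt4: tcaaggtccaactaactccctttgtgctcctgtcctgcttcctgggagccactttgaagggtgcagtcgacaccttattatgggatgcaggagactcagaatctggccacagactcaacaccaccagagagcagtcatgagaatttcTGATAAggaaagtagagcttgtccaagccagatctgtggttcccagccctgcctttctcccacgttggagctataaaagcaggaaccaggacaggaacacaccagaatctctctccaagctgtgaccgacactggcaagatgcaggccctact
Mmp3: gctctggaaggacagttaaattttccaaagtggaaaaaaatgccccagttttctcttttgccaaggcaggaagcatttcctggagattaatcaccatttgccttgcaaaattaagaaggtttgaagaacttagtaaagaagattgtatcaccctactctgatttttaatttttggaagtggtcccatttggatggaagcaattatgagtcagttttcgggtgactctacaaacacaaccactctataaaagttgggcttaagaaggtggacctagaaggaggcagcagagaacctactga
Cpa3 held AGATAA with its first base at -46 from the start, Mcpt4 held TGATAA at -103, and the Mmp3 window held neither. CACGTG and CACATG, E-box cores known for the factor MITF, were in none of the 3 windows on either strand. The GATA cores were in 18.6% of all 32851 promoter windows and in 6 of the 34 windows (17.6%) of the genes past the threshold in the pooled comparison, and the E-box cores were in 20.4% of all windows and 20.6% of those 34. These are matches of letters, not measured binding.

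Mmp3, stromelysin 1, a matrix metalloproteinase that cleaves proteoglycans, fibronectin and other metalloproteinase zymogens, was the only member outside the mast cell lists, and its difference was found in stroke dura. It was at 9.51, 9.84 and 9.59 in engrafted stroke dura and at 10.83, 11.09 and 11.12 in wild-type stroke dura, against 8.21, 7.56 and 7.34 in deficient stroke dura. In naive dura it was at 6.36, 6.81 and 6.70 in engrafted mice and at 6.72, 6.91 and 6.79 in wild-type mice, against 6.76, 6.73 and 6.98 in deficient mice. The 3 categories did not overlap after stroke, where 2.02% of probe sets had all 6 mast cell-bearing arrays above the 3 deficient ones, and overlapped in naive dura. Averaged over both states, Mmp3 exceeded deficient dura by 0.87 ± 0.13 in engrafted (adjusted p = 0.0119) and 1.65 ± 0.13 in wild-type dura (adjusted p = 6.24e-06). The mast cell-bearing minus deficient difference was 2.62 ± 0.15 in stroke dura (adjusted p = 4.14e-07) and -0.11 ± 0.15 in naive dura (adjusted p = 0.999). The change of that difference with stroke, 2.73 ± 0.22, passed the test (adjusted p = 3.48e-05). Engrafted dura was below wild-type dura by a difference of -0.77 ± 0.13 (adjusted p = 0.0214). Mmp3 left the members when deficient naive 1, deficient naive 2, engrafted naive 2 or deficient stroke 2 was left out. It also left them in a model of 3 categories plus state, with no term for a stroke response that differs by category, where the adjusted p was 1.00 for engrafted and 0.10 for wild type.

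The genes next to the threshold were also mast cell genes or moved with stroke. Cma1, mast cell chymase 1, differed by 0.83 ± 0.14 in engrafted (adjusted p = 0.0515) and 0.76 ± 0.14 in wild-type dura (adjusted p = 0.0148). Fcer1a, the IgE-binding alpha chain of the high-affinity IgE receptor, differed by 1.07 ± 0.13 in engrafted (adjusted p = 0.00184) and 0.51 ± 0.13 in wild-type dura (adjusted p = 0.0712). Its deficient mean was below the lower quartile too, so both differences may be lower bounds. Slc6a14, an amino acid transporter, differed by -0.63 ± 0.10 in engrafted (adjusted p = 0.0532) and -0.88 ± 0.10 in wild-type dura (adjusted p = 0.000479). No gene passed on the lower side in both categories.

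The comparisons behind the members differed in their number of calls. Of 21640 probe sets tested, 7 were called for engrafted minus deficient (0.0323%), all higher, and 241 for wild type minus deficient (1.11%), 143 of them higher (0.661%) and 98 lower (0.453%). Both calls in the same direction were found for 0.0277% of probe sets on the higher side. At an unadjusted p under 0.05, 575 probe sets passed for engrafted minus deficient, fewer than the 1082 that uniform p-values would give, and 3423 for wild type minus deficient. Both comparisons share the 6 deficient arrays, so the count of shared genes is a description. When the 12 mast cell-bearing arrays were set against the 6 deficient arrays in 1 contrast, 42 probe sets of 41 genes passed (0.194%), 32 higher (0.148%) and 10 lower (0.0462%), with 1488 at an unadjusted p under 0.05. Of these 42, 7 were also called for engrafted minus deficient and 41 for wild type minus deficient. A model with only the 2 classes and the state called 6 probe sets, namely Mcpt2, Cpa3, Mcpt4, Tpsb2, Tpsab1 and Cma1. Without the 5 arrays low in Ttr, 7 probe sets were called, 5 of them among the 42.

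**Figure D2:**
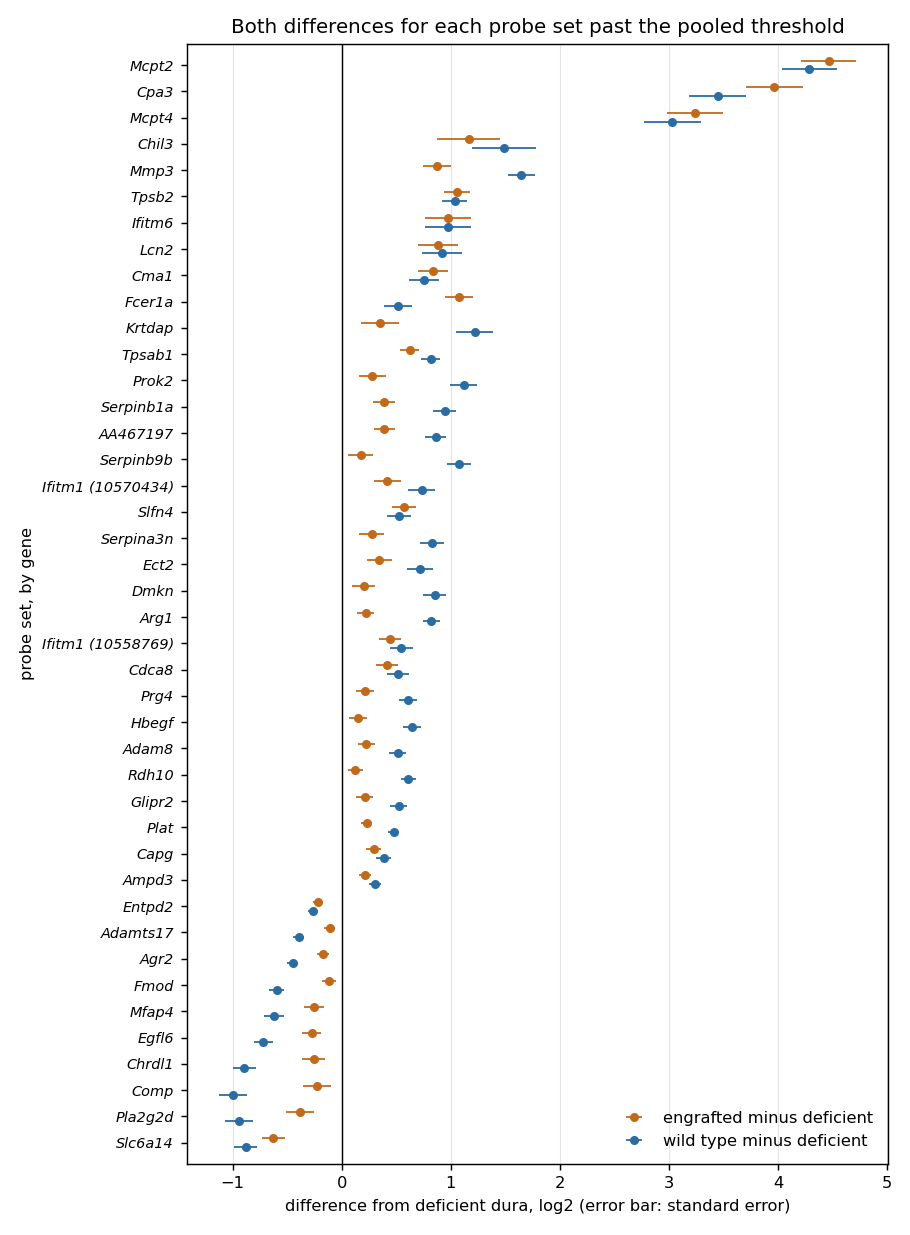
Engrafted minus deficient and wild type minus deficient, in log2 with standard errors, for each of the 42 probe sets past the threshold in the pooled comparison, sorted by the pooled difference; a gene with 2 probe sets has their identifiers. The differences lie close together for Mcpt2, Cpa3, Mcpt4 and Tpsb2, and the engrafted difference is the one nearer 0 for 34 of the 42 (81%), as it is for 70.3% of all probe sets tested.

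How far engrafted dura reached the wild-type level was tested with engrafted minus wild type, a difference that holds no deficient array, although its error pools the spread of all 6 groups. Of all probe sets 62 were called (0.287%), 25 higher (0.116%) and 37 lower (0.171%) in engrafted dura. With the 4 compared groups fitted alone 23 were called, and with 1 deficient array left out 38 to 83 (38 without deficient naive 1). None of the 7 mast cell genes among the 42 probe sets was called, with differences between -0.19 and 0.56. Tpsb2 differed by 0.02 ± 0.12 (adjusted p = 0.928), Mcpt2 by 0.18 ± 0.25 (adjusted p = 0.714) and Cpa3 by 0.52 ± 0.26 (adjusted p = 0.314). A p above the threshold does not show that the levels were equal. Of the 42, 15 were called, all outside the mast cell genes, and engrafted dura lay on the deficient side of wild type in each of these 15. They include Serpinb9b, a serine protease inhibitor of the granzyme-inhibiting family (-0.90 ± 0.11, adjusted p = 0.0119), and Comp, the cartilage oligomeric matrix protein (0.77 ± 0.13, adjusted p = 0.0227).

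The stroke state divided the 42 probe sets. In naive dura 4 probe sets were called (0.0185%), Mcpt2, Cpa3, Mcpt4 and Tpsb2, each higher. In stroke dura 151 were called (0.698%), 131 higher (0.605%) and 20 lower (0.0924%), among them 37 of the 42, which were chosen partly on the same arrays. The change of the difference with stroke, whose estimate is independent of the pooled one although both share the residual spread, was called for 13 probe sets (0.0601%), of which 6 are among the 42: Mmp3, Arg1, Prok2, Serpinb9b, Prg4 and Slc6a14. Taken by category, stroke dura had 6 calls for engrafted minus deficient (0.0277%) and 565 for wild type minus deficient (2.61%). Raet1d, a ligand of the NK cell receptor NKG2D, was called for that change too (1.47 ± 0.21, adjusted p = 0.0226) but not in the pooled comparison (0.33 ± 0.10, adjusted p = 0.346). None of the mast cell genes was called for it.

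**Figure D3:**
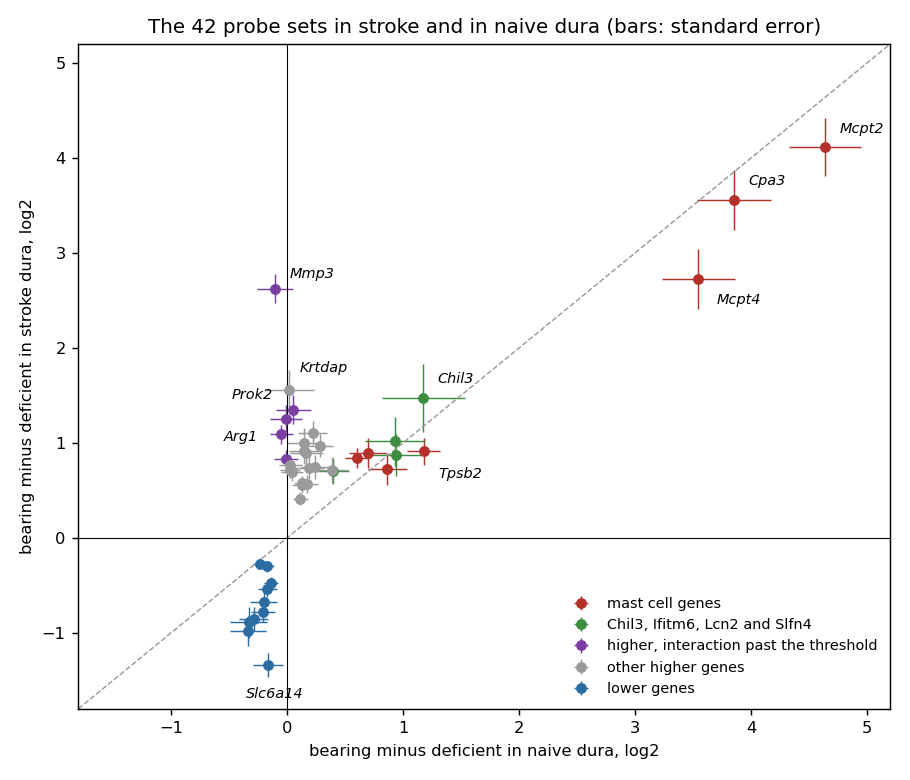
Mast cell-bearing minus deficient in stroke dura (vertical) against the same difference in naive dura (horizontal), log2 with standard errors, for the 42 probe sets; the dashed line marks equal differences. Mast cell genes lie near the line, Mmp3 and 4 other genes with a called change lie near 0 on the horizontal axis and between 0.83 and 2.62 on the vertical one, and the 10 lower probe sets reach -1.34 in stroke dura.

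Arg1, arginase 1, which competes with nitric oxide synthase for arginine in macrophages and myeloid cells, followed wild type more than engraftment. After stroke it was at 6.43, 6.57 and 6.73 in engrafted dura and at 8.33, 7.98 and 8.26 in wild-type dura, against 6.20, 6.28 and 6.40 in deficient dura. Engrafted stroke arrays were just above the deficient ones and far below wild type. In naive dura it was at 6.19, 6.35 and 6.50 in engrafted mice and at 6.11, 5.72 and 5.98 in wild-type mice, against 6.17, 6.23 and 6.17 in deficient mice, with wild type lowest. These naive levels were close to the lower quartile of the arrays (6.09 to 6.23), with 2 wild-type arrays below it. The order of the categories in naive dura is therefore uncertain. The difference from deficient stroke dura was 0.28 ± 0.11 for engrafted (adjusted p = 0.775) and 1.90 ± 0.11 for wild type (adjusted p = 3.26e-07). The change of the pooled difference with stroke was 1.14 ± 0.14 (adjusted p = 0.00624). Prok2, prokineticin 2, a chemoattractant peptide made by neutrophils, was at 7.34, 7.51 and 7.20 in engrafted stroke dura and at 8.60, 9.28 and 9.62 in wild-type stroke dura, against 6.89, 6.80 and 7.05 in deficient stroke dura. It too was highest in wild type, with the engrafted arrays between the other categories. Its pooled difference changed with stroke by 1.29 ± 0.21 (adjusted p = 0.0437), that of Serpinb9b by 1.26 ± 0.20 (adjusted p = 0.0366) and that of Prg4, the joint lubricant lubricin, by 0.83 ± 0.14 (adjusted p = 0.048). Of 26 alternatives, 7 kept the call of this change for Prok2, 7 for Prg4 and 10 for Serpinb9b, whereas that of Mmp3 was kept under 25 and that of Arg1 under 24 of 25.

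Of the 10 probe sets called on the lower side, Slc6a14, the amino acid transporter, had the largest difference. It was at 7.38, 7.63 and 7.24 in engrafted stroke dura and at 6.91, 6.97 and 6.79 in wild-type stroke dura, against 8.17, 8.89 and 8.42 in deficient stroke dura. Both mast cell-bearing categories were below all deficient stroke arrays, as for 1.99% of probe sets, whereas in naive dura the 9 arrays lay between 8.52 and 8.97. The difference in stroke dura was -1.08 ± 0.15 for engrafted (adjusted p = 0.0105) and -1.60 ± 0.15 for wild type (adjusted p = 3.68e-05), and the change of the pooled difference with stroke was -1.17 ± 0.18 (adjusted p = 0.0366), a call that 11 of 26 alternatives kept. Comp was at 9.15, 9.37 and 9.55 in engrafted stroke dura and at 8.51, 8.36 and 8.09 in wild-type stroke dura, against 9.77, 10.02 and 9.40 in deficient stroke dura. The engrafted arrays reached into the deficient range, and the pooled difference of -0.61 ± 0.11 passed (adjusted p = 0.0372), as it did under 11 of 28 alternatives. Chrdl1, a secreted BMP antagonist (-0.57 ± 0.09, adjusted p = 0.0135), Fmod, the collagen-binding proteoglycan fibromodulin (-0.36 ± 0.06, adjusted p = 0.0176), Mfap4, a microfibril protein (-0.44 ± 0.08, adjusted p = 0.0347), and Egfl6, an extracellular matrix protein (-0.50 ± 0.07, adjusted p = 0.0091), fell as well. Pla2g2d, a secreted phospholipase A2 of lymphoid tissue, Agr2, a protein disulfide isomerase, Entpd2, an ectonucleotidase, and Adamts17, a metalloproteinase, complete the 10. For Adamts17 the other 4 probe sets differed by -0.28 to -0.04 and were not called. In the list of 17 meningeal fibroblast and matrix genes, 2 fell (Comp and Fmod), none rose, and the median pooled difference was -0.02.

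Chil3, Lcn2, Ifitm6 and Slfn4, which myeloid cells and granulocytes express, were higher in the pooled comparison and had positive differences in both states, and were grouped after their values were seen. Chil3, a chitinase-like lectin of granulocyte precursors and macrophages, was at 8.26, 8.69 and 9.56 in engrafted stroke dura and at 8.06, 9.01 and 9.02 in wild-type stroke dura, against 7.32, 6.73 and 7.82 in deficient stroke dura. In naive dura it was at 5.91, 5.82 and 7.23 in engrafted mice and at 7.49, 6.51 and 7.32 in wild-type mice, against 5.68, 5.46 and 5.48 in deficient mice. Within each state the mast cell-bearing arrays stood above the deficient ones, a separation found for 18 probe sets (0.0832%), and for 3 on the lower side (0.0139%). In naive dura the gap for Chil3 was 0.14. The deficient naive arrays and 2 engrafted naive arrays were below the lower quartile, so the naive part of its difference is uncertain. The pooled differences were 1.32 ± 0.25 for Chil3 (adjusted p = 0.048), 0.97 ± 0.18 for Ifitm6, an interferon-induced transmembrane protein of myeloid cells (adjusted p = 0.0421), 0.90 ± 0.16 for Lcn2, the siderophore-binding lipocalin of neutrophil granules (adjusted p = 0.0303), and 0.55 ± 0.10 for Slfn4, a myeloid schlafen protein (adjusted p = 0.03). These calls depended on the arrays included and on the processing. Of 28 alternatives, 18 of which left out 1 array, 9 kept the call of Chil3, 8 that of Ifitm6, 15 that of Lcn2 and 16 that of Slfn4. Lcn2 was 0.88 ± 0.18 above deficient dura in engrafted (adjusted p = 0.328) and 0.92 ± 0.18 above it in wild-type dura (adjusted p = 0.0242). Of 12 measured mature neutrophil genes, 0 passed in the pooled comparison by limma, although all 12 differences were positive with a median of 0.71, against a median of -0.0012 over all probe sets tested. Against deficient dura, 7 of the 12 passed for wild type and 0 for engrafted, and the difference between those categories was called for 0. Mmp8, the neutrophil collagenase, came nearest (1.21 ± 0.23, adjusted p = 0.0513), followed by Cxcr2, the receptor for CXC chemokines that guides neutrophils (0.87 ± 0.18, adjusted p = 0.0684). Of 10 granulocyte precursor genes, 1 rose (Chil3) and all 10 differences were positive, with a median of 0.97 for engrafted and 0.30 for wild type. The summed level of the mature neutrophil list, as the mean over its genes after centring each gene, was -0.55 to 0.99 with a median of 0.22 in the 12 mast cell-bearing arrays, and -0.88 to -0.05 with a median of -0.43 in the 6 deficient arrays. Its part in the differences of other genes was not tested.

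**Figure D4:**
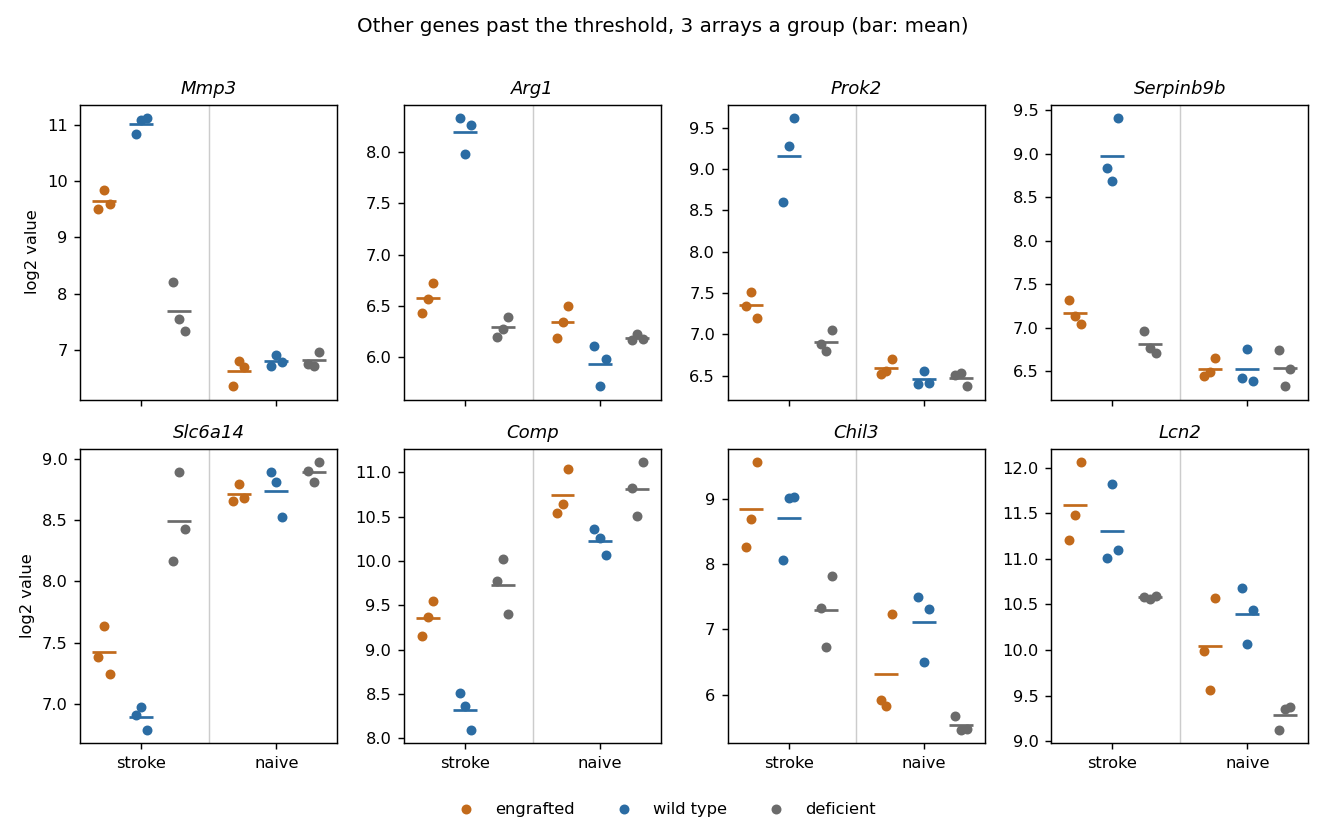
Log2 levels of 8 other genes past the threshold in each array, in the same layout, with engrafted, wild-type and deficient dura in that order within stroke and naive and a separate vertical scale for each panel. Mmp3, Arg1, Prok2 and Serpinb9b lie far above deficient dura in wild type after stroke and not in naive dura, Slc6a14 and Comp are lowest in wild-type stroke dura, and Chil3 and Lcn2 lie above deficient dura within each state.

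A further 15 genes rose in the pooled comparison and were called in stroke dura, none of them in naive dura. Their engrafted minus deficient differences were 0.13 to 0.42 with no call, against 0.31 to 1.22 for wild type minus deficient. Engrafted minus wild type was called for 5 of them, each lower in engrafted dura. Plat, tissue plasminogen activator, was the one gene outside the mast cell lists for which all 12 mast cell-bearing arrays were above all 6 deficient arrays, a pattern of 9 probe sets in all (0.0416%), the others being Mcpt2, Cpa3, Mcpt4, Tpsb2, Tpsab1, Cma1, Fcer1a and Ms4a2. For Plat this separation was marginal, with the lowest mast cell-bearing array at 10.8867 and the highest deficient array at 10.8857. Within naive dura its gap was 0.014. Plat was at 11.15, 10.89 and 10.99 in engrafted stroke dura and at 11.38, 11.49 and 11.56 in wild-type stroke dura, against 10.59, 10.65 and 10.75 in deficient stroke dura. Wild type was highest after stroke, and the pooled difference was 0.35 ± 0.05 (adjusted p = 0.00317). Serpinb1a, an inhibitor of neutrophil elastase and cathepsin G (0.67 ± 0.09, adjusted p = 0.00347), Hbegf, a growth factor that binds the EGF receptor (0.40 ± 0.07, adjusted p = 0.0303), Serpina3n, an acute phase protease inhibitor (0.55 ± 0.10, adjusted p = 0.0303), and Adam8, a membrane metalloproteinase of leukocytes (0.37 ± 0.07, adjusted p = 0.0345), were in this group. Ifitm1 was called by both of its probe sets (0.50 ± 0.09 and 0.58 ± 0.10).

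The other mast cell lists had fewer calls than the proteases. Of 11 measured protease genes, 6 rose (Mcpt2, Cpa3, Mcpt4, Tpsb2, Tpsab1 and Cma1), and the median pooled difference was 0.79. Mcpt1, a chymase of mucosal mast cells, had means below the lower quartile in both classes, and it and Tpsg1, a transmembrane tryptase, differed by 0.02 each. Mcpt8, the basophil protease, differed by 0.24 ± 0.11 (adjusted p = 0.672). Ctsg, cathepsin G, shared by mast cells and granulocyte precursors, differed by 0.86 ± 0.26 (adjusted p = 0.298), with 1.34 for engrafted and 0.38 for wild type. Of 20 receptor and signalling genes 1 rose, Fcer1a, with a list median of 0.13. Mrgprb1, a receptor of the Mas-related family on mast cells, differed by 0.79 ± 0.16 (adjusted p = 0.0548), and Mrgprb2, the mast cell receptor for basic secretagogues, by 0.37 ± 0.09 (adjusted p = 0.137), with deficient means again below the lower quartile. All 12 mast cell-bearing arrays were below it too for Mrgprb2, Ms4a2 and Mrgprx2, so the size of their differences is uncertain, since detection above background is unknown. Mrgprb2 and Mrgprx2 were among the 10 genes most like Cpa3 over these 12 arrays after removal of the group means. Their Pearson correlations were 0.94 and 0.90, and 0.82 and 0.69 without the 2 arrays farthest out in Cpa3. High values follow from that ranking over all genes, so they do not show detection. Pias1, Prmt6 and Ccar1, with pooled differences of -0.05, 0.04 and 0.02, reached 0.88, 0.87 and 0.84. Ms4a2, the beta chain of the IgE receptor, differed by 0.16 ± 0.04 (adjusted p = 0.201), although its groups did not overlap. None of the 15 granule and mediator enzyme genes passed (median 0.06). Among them Hdc, which makes histamine, differed by 0.40 ± 0.08 (adjusted p = 0.0859), and Slc18a2, the vesicular monoamine transporter, by 0.24 ± 0.06 (adjusted p = 0.227). Tph1, which starts serotonin synthesis, differed by -0.03 ± 0.09 (adjusted p = 0.979). It was at 12.47 to 13.28 in mast cell-bearing arrays and at 12.76 to 13.17 in deficient arrays. With so high a level in deficient dura, this difference cannot show whether mast cells add to the Tph1 signal. None of the 9 transcription factor genes passed (median 0.01), with Gata2 at -0.05 ± 0.08 and Mitf at -0.20 ± 0.13.

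Kit itself carries the mutant alleles in the host tissue of engrafted and deficient mice alike, and cells other than mast cells transcribe it. It was at 9.29, 8.76 and 9.32 in engrafted stroke dura and at 9.17, 8.92 and 8.80 in wild-type stroke dura, against 8.63, 8.76 and 8.71 in deficient stroke dura. In naive dura it was at 9.19, 9.07 and 9.08 in engrafted mice and at 9.41, 9.83 and 9.36 in wild-type mice, against 8.98, 8.91 and 9.19 in deficient mice. The classes overlapped, and the pooled difference of 0.32 ± 0.09 did not pass (adjusted p = 0.256). None of 12 mast cell cytokine genes passed in the pooled comparison. In stroke dura 2 of them were higher, the monocyte chemoattractants Ccl2 (1.00 ± 0.17, adjusted p = 0.0116) and Ccl7 (0.97 ± 0.18, adjusted p = 0.0202). Both were also higher in wild type minus deficient, whereas none of the 12 passed for engrafted minus deficient. After stroke Ccl2 was at 8.13, 8.43 and 8.52 in engrafted dura and at 10.29, 9.33 and 9.37 in wild-type dura. It was at 8.03, 8.04 and 7.96 in deficient stroke dura. For Ccl7 too, every wild-type stroke array was above every engrafted one, and the lowest engrafted array lay within the deficient range. Il6, interleukin 6, was at 4.54, 6.25 and 4.87 in engrafted stroke dura and at 6.30, 5.14 and 8.15 in wild-type stroke dura, against 4.86, 4.54 and 4.46 in deficient stroke dura. The wild-type stroke arrays spread over about 3 log2 units and 1 engrafted stroke array stood above the other 2, and the pooled difference was 0.66 ± 0.32 (adjusted p = 0.763).

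**Figure D5:**
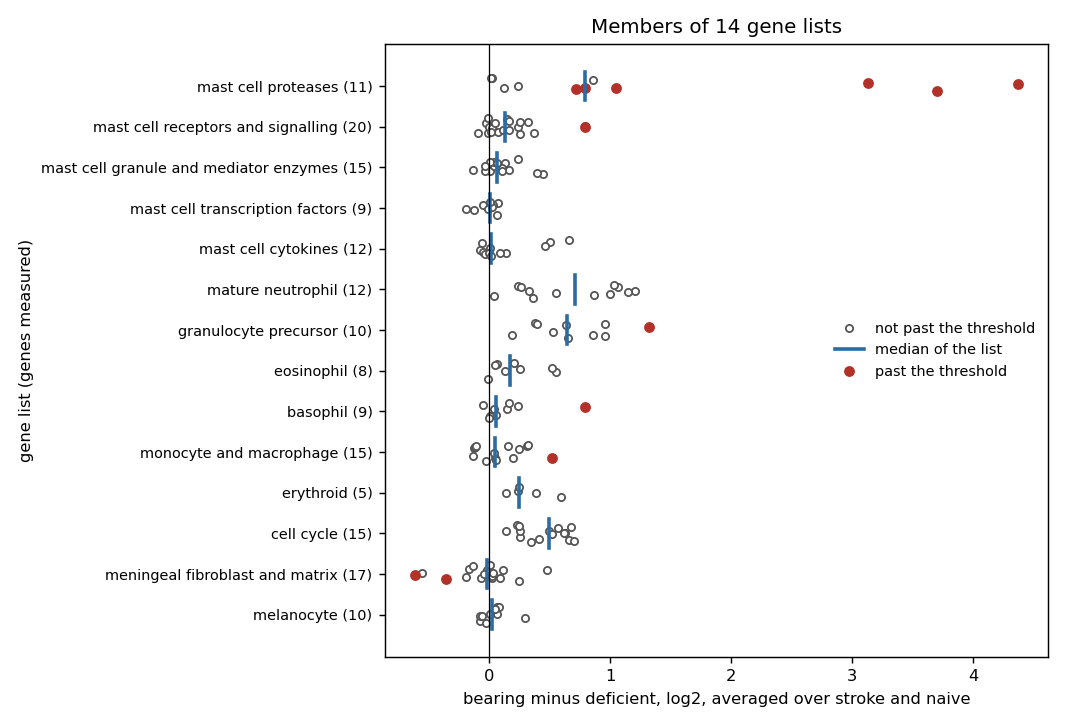
Pooled mast cell-bearing minus deficient difference (log2) of each measured gene in 14 lists, filled where it passed the threshold, with the list's median as a bar; points are shifted vertically for legibility. The proteases reach 4.37, the mature neutrophil and granulocyte precursor genes all lie above 0, and the transcription factors and melanocyte genes lie around 0.

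Among the mast cell-bearing mice, several protease genes varied together. After removal of the 4 group means over 12 arrays, the levels most like Cpa3 by Pearson correlation were Tpsb2 at 0.98, Mcpt4 at 0.97, Mcpt2 at 0.96, Mrgprb2 at 0.94, Cma1 at 0.93, Mrgprx2, a further Mas-related receptor, at 0.90, Pias1 at 0.88, Prmt6 at 0.87, Ccar1 at 0.84 and Fcer1a at 0.84. Engrafted naive 1 and engrafted naive 3, which deviated by 1.12 and -1.02 in Cpa3, set much of this. Without both, the correlation was 0.93 for Tpsb2, 0.91 for Mcpt4, 0.83 for Mcpt2 and 0.41 for Fcer1a. Of the other proteases, Gzmb, granzyme B, had 0.80 and Tpsab1 0.68 over the 12 arrays, and -0.38 and 0.37 without both, while Ctsg, Mcpt8, Tpsg1 and Mcpt1 had 0.11, -0.19, -0.24 and -0.52 over the 12. Arrays share tissue sampling and normalization, and these correlations are descriptions.

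Other cell lists showed no comparable set of calls. Of 9 basophil genes 1 rose, Fcer1a, which mast cells share. Of 8 eosinophil, 10 melanocyte, 5 erythroid and 15 cell cycle genes none passed by limma. All 15 cell cycle differences were positive (median 0.49), and in stroke dura alone 2 of the 15 passed, both higher, with a list median of 0.83. Outside that list, the cell division genes Ect2 (0.53, limma adjusted p = 0.048) and Cdca8 were among the genes called higher in the pooled comparison. Of 28 alternatives, 8 kept the call of Ect2 and 7 that of Cdca8. The melanocyte genes had a pooled median of 0.03. Of 15 monocyte and macrophage genes 1 rose, Arg1, and of 10 keratinocyte genes 1 rose, Krtdap, a secreted epidermal peptide (0.79 ± 0.15, adjusted p = 0.0452). The Krtdap call was kept under 7 of 27 alternatives, and its deficient mean and 6 of its 12 mast cell-bearing arrays were below the lower quartile. Its naive arrays were all below it in both classes, at 5.16 to 5.63, so the naive part of its difference is uncertain. In deficient stroke dura it was at 6.79, 5.89 and 6.20. Of 10 choroid plexus genes none passed, with a median of 0.53 and a pooled Ttr difference of 1.32 ± 0.87 (adjusted p = 0.924).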

How the data were processed

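Log2 expression values of 34760 probe sets on 18 arrays were used as the authors deposited them in the series table. The submitters' processing notes name RMA, affy and R 3.0.0 without their roles, and the values (3.42 to 14.06) need no further log. Probe sets were named through the platform annotation: 21640 had 1 gene symbol and were tested, 1321 had several and 11799 had none. Of the 13120 left out, 0 were called by limma in the pooled comparison.

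Arrays were grouped by their titles. A mean per group was fitted with limma 3.58.1 in R 4.3.3 (lmFit and eBayes, 12 residual and 3.41 prior degrees of freedom). Engrafted and wild type got equal weight against deficient, as did stroke and naive, and p-values were adjusted by Benjamini-Hochberg over all 21640 probe sets for each of 8 results, with 0.05 as the threshold. With 3 mice a group, p-values measure the spread between these mice. No pair of arrays was identical. Intensities before normalization were not used, so detection above background is unknown.

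The members and the 34 gene lists (373 of 412 genes measured) were chosen with earlier results of these data known. Named were the members, all mast cell list genes, the 4 list genes with the smallest p, the top 5 of the interaction and of engrafted minus wild type, the 10 lower genes with the smallest p, Ttr and Il6. Other genes of the pooled comparison, and S100a8 and S100a9, were chosen after their values were seen. A gene with several probe sets is given by the brightest, except Adamts17 and Ifitm1. Simulated data held 200 probe sets changed alike in both mast cell-bearing categories, and 200 others changed in these categories after stroke only. Their noise was normal and independent between arrays and probe sets. Of changes of 0.5 log2 in both states, the pooled test recovered 94% and the rule of both categories 87.2%. Of the pooled calls, 4.39% fell outside both changed sets. The deposited arrays also share shifts such as that in Ttr, so these shares do not give the recovery in them. Promoter windows were read from RefSeq tables. The alternatives tried are given with their effect in the closing section.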

Additional observations from a re-analysis of the deposited data

Results flagged for a closer look

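The difference between mast cell-bearing and deficient dura changed with stroke, by limma's interaction term, for 7 of the genes reported. The change, as the stroke difference minus the naive difference, was 2.73 for Mmp3 (adjusted p = 3.48e-05), 1.47 for Raet1d (adjusted p = 0.0226), 1.29 for Prok2 (adjusted p = 0.0437), 1.26 for Serpinb9b (adjusted p = 0.0366), 1.14 for Arg1 (adjusted p = 0.00624), 0.83 for Prg4 (adjusted p = 0.048) and -1.17 for Slc6a14 (adjusted p = 0.0366). Of 26 alternatives, 7 kept the call of Prok2, 7 that of Prg4, 10 that of Serpinb9b, 11 that of Slc6a14 and 19 that of Raet1d.

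Engrafted and wild-type dura differed from each other, by limma, for 17 of the genes reported. Engrafted dura was lower for 10 of them, with engrafted minus wild type at -0.90 for Serpinb9b, -0.86 for Krtdap, -0.84 for Prok2, -0.77 for Mmp3, -0.65 for Dmkn, a secreted epidermal protein, -0.61 for Raet1d, -0.60 for Arg1, -0.56 for Serpinb1a, -0.50 for Hbegf and -0.48 for Rdh10, a retinol dehydrogenase. It was higher for 7, at 0.77 for Comp, 0.63 for Chrdl1, 0.62 for Gask1a, a Golgi-associated kinase-like protein, 0.48 for Fmod, 0.44 for Egfl6, 0.28 for Adamts17 and 0.28 for Agr2. Adjusted p-values lay between 0.0119 and 0.0476. Groups of 3 arrays are too small for the test of single outlying arrays, which was not run.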

How the results depend on the processing

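The count of genes that passed in both categories, 6 as reported, was within 1.5 times of that under 26 of 28 alternatives, ranging from 5 to 11 when 1 array was left out, and was 10 with array weights. Mcpt2, Cpa3, Mcpt4 and Tpsb2 kept their pooled call under all 28 alternatives fitted for them, Tpsab1 under 27 (highest adjusted p = 0.0519), and Mmp3 under 26 (highest adjusted p = 0.798, with 2 classes plus state). Fits without interaction terms shrank the pooled count of 42 to 6 (2 classes plus state) and 8 (3 categories plus state), and gave 90 for wild type minus deficient and 2 for engrafted minus wild type. They hold the stroke response equal in all categories, and so add its differences to the residual spread. Array weights gave 318 pooled, 1444 for wild type and 12 for engrafted minus deficient, 11 in naive and 721 in stroke dura, 122 interactions and 176 for engrafted minus wild type. Testing all probe sets gave 20 pooled, 158 for wild type minus deficient, 93 in stroke dura, 2 interactions and 31 for engrafted minus wild type. A 1.5-fold minimum gave 19 pooled, 80 for wild type minus deficient, 88 in stroke dura and 16 for engrafted minus wild type. Choroid plexus and neuron scores as covariates gave 83 pooled, 143 for wild type minus deficient, 292 in stroke dura and 12 for engrafted minus wild type. Only the compared groups gave 4 for engrafted minus deficient, 42 in stroke dura and 23 for engrafted minus wild type. Without overlap of arrays within each state, and with no test, 21 probe sets separated. Without the 5 arrays lowest in Ttr, 7 were called pooled, 49 for wild type minus deficient, 19 in stroke dura, 6 for engrafted minus wild type, and 0 interactions by limma. Why a setting changed a count was not tested for any setting. Leaving out 1 array gave 15 to 115 pooled calls (15 without deficient stroke 2, 115 without engrafted stroke 1), 99 to 365 for wild type minus deficient, 6 to 18 for engrafted minus deficient, 4 to 7 in naive dura, 39 to 317 in stroke dura, 2 to 19 interactions and 10 to 105 for engrafted minus wild type. The 42 pooled calls were each kept under 7 to 28 alternatives. The sign turned for 3 uncalled genes: Tph1 (0.0016 without deficient naive 1, 0.0092 without wild-type stroke 3, 0.0084 without deficient stroke 1 and 0.082 without the low-Ttr arrays), Gata2 (-0.15 to 0.045 with 1 array left out, above 0 without deficient naive 3, and 0.19 without the low-Ttr arrays) and Ttr itself (-0.10 without them, against 1.32 as reported). Replicate numbers did not pair arrays: same-numbered arrays of different groups correlated over 0.1 in 11 of 45 pairs (-0.61 to 0.60), and 4 of 18 arrays correlated best with their own number. With the replicate number as a block, 36 pooled and 7 both-category calls were made, 145 for wild type minus deficient, 98 in stroke dura, 5 interactions and 17 for engrafted minus wild type.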

Other observations

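For mature neutrophil genes, arrays of 1 group differed widely. S100a8, a calcium-binding alarmin of neutrophils, was at 10.66, 11.05 and 11.93 in engrafted stroke dura and at 9.93, 11.36 and 10.38 in wild-type stroke dura, against 10.04, 9.70 and 10.28 in deficient stroke dura. In naive dura it was at 8.98, 8.93 and 10.49 in engrafted mice and at 10.60, 9.59 and 10.38 in wild-type mice, against 8.08, 8.76 and 8.40 in deficient mice. Engrafted naive 3, an array low in Ttr, had the highest S100a8 of its group. The pooled difference was 1.15 ± 0.27 (limma adjusted p = 0.137), and for S100a9, its partner in calprotectin, 1.03 ± 0.23 (adjusted p = 0.113).

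Genes of red cell precursors had their higher median in engrafted dura. The 5 erythroid genes measured had a median difference from deficient dura of 0.58 in engrafted and -0.03 in wild-type dura, and none passed in either comparison or between them by limma. Their mean after centring each gene, from lowest to highest array, was -0.13, -0.05 and 0.96 in engrafted naive dura. It was 0.13, 0.57 and 1.25 in engrafted stroke dura. Deficient arrays ranged from -0.34 to 0.14, so only some engrafted arrays lay above them.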
